A study of Mus musculus with 18 samples.

Results

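The complement components and regulators described here are 9 genes of the mouse dorsal root ganglion (DRG), taken by symbol from a table of 36737 genes. They are the components C3, C4b, Cfb and C1s1, the regulators Serping1, Cd55 and Clu, and the receptors C3ar1 and C5ar1. C3 was included because the study names it, and Clu because its level was higher after fracture in these libraries, so their group differences are given below as a description with no test. The genes of the C1q complex were left out of the 9. All 9 genes passed the filter on low counts in each of the 6 fits.

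The tissue was L3–L5 DRG of adult CD1 mice, an outbred strain without an engineered allele, in which a fracture of the left tibia was fixed with an intramedullary pin under isoflurane. Sham mice had sham surgery, fracture mice had the fracture and vehicle, and fracture plus PDX mice had the fracture and protectin DX (PDX), a lipid mediator made from docosahexaenoic acid. Each mouse gave 1 library, from 6 mice a group (3 of each sex, 18 libraries), and the ganglia of both fracture groups were taken on day 3. The day of the sham ganglia and the dose of PDX in these mice were not given in the sources used here.

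Complement is a set of plasma and cell surface proteins that mark cells and debris for removal. C1s, bound to C1q and C1r, cleaves C4 and C2, which form an enzyme that cleaves C3. Factor B, the product of Cfb, takes the place of C2 in the alternative pathway. Each cleavage of C3 and C5 frees a small peptide, C3a or C5a, that is bound by the receptor encoded by C3ar1 or C5ar1. The C1 inhibitor encoded by Serping1 blocks C1s, CD55 takes apart the enzymes that cleave C3, and clusterin, the product of Clu, binds the terminal complex. In peripheral nerve and ganglia, complement is known mainly from glia, fibroblasts and immune cells.

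The promoters of C3 and C1s1 are shown because these genes had the highest correlation of any pair of the 9 after group and sex were accounted for (Pearson r = 0.49 over 18 libraries). Both are from RefSeq on GRCm38.p6, run 5′ to 3′ on the minus strand and end at the base before a RefSeq start of the gene. Capitals mark a match to TTGCNNAA, the core bound by C/EBP factors, or to GGGNNNTCC, a core bound by NF-kB, each searched on both strands.
C3, chr17:57228137-57228386: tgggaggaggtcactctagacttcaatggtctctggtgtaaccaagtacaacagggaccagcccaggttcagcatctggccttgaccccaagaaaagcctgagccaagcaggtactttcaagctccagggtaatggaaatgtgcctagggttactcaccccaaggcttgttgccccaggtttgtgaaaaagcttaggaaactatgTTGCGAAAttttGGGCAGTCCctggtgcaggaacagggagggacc
C1s1, chr6:124542360-124542609: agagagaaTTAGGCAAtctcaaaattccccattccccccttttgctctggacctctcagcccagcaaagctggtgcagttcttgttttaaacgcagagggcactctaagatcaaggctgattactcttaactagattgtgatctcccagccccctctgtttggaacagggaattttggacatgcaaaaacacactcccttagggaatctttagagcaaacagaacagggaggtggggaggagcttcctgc

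In C3, the C/EBP match lay 45 to 38 bases and the NF-kB match 33 to 25 bases before the start, and these matches did not overlap. In C1s1, the C/EBP match was read on the other strand and lay 242 to 235 bases before the start. RefSeq gives C1s1 another start within the gene, whose overlapping window (chr6:124542322-124542571) held none of the motifs searched here. Of 32851 promoter windows of 250 bases, 9.56% held the C/EBP core and 15.2% the NF-kB core. The same windows were also searched for TATAAA (12.4% of all windows), for TTCNNNGAA, a core bound by STAT factors (7.02%), and for the interferon-stimulated response element (2.98%), and neither printed window held one. RefSeq windows were matched for 5 of the 9 genes, which also included Cd55, C3ar1 and C5ar1.

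Library totals ran from 63235040 to 82824942 counted reads. CPM below are counts scaled to a common library size by TMM, and FPKM, the authors' values per transcript length, are used where levels of different genes are compared. All 10 sensory neuron markers and all 6 satellite glia markers had more than 3 counts in every library. Sham female 1 stood apart from the other sham libraries, with 3322 summed CPM of satellite glia markers against 3899 to 4188, and results that turn on it are given with and without it. Markers of other cells were also summed in each library. The summed macrophage markers (10 genes, all above 3 counts in every library) were 189 to 242 CPM in sham, 147 to 183 in fracture and 176 to 225 in fracture plus PDX mice. The 6 trophoblast markers, which males also carried, summed to 153 to 481 CPM in sham, 26.5 to 213 in fracture and 25.6 to 120 in fracture plus PDX mice, and edgeR called 2 of the 6 lower than sham in fracture and 5 of the 6 in fracture plus PDX mice. The 8 skeletal muscle markers summed to 30.4 to 585 CPM in sham, 51.8 to 1188 in fracture and 14.6 to 530 in fracture plus PDX mice, with overlapping ranges and 0 of the 8 called in edgeR in any group comparison (1 had an unadjusted p-value under 0.05, higher after fracture). The summed endothelial markers (6 genes) were 90.1 to 115 CPM in sham, 79.2 to 96.3 in fracture and 78.4 to 92.6 in fracture plus PDX mice, and the 6 red blood cell markers 774 to 2209, 969 to 1346 and 497 to 2854 CPM. Of the endothelial markers 1 was called lower than sham in each fracture group, and of the red blood cell markers 0 in any group comparison (2 lower after fracture before adjustment). The part of these cells in the results was not tested, and in bulk tissue fewer cells of a type and less RNA per cell cannot be told apart.

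Levels of the 9 genes differed by a factor of 229 between the highest and the lowest mean FPKM. Clu led with 131 ± 9.32 FPKM (SD, n = 18) and lay above every other gene of the 9 in all 18 libraries. Cd55 (68.2 ± 6.56 FPKM) and Serping1 (67.6 ± 7.34 FPKM) followed, and their order was not resolved, with Cd55 the higher in 8 of 18 libraries. These 3 regulators together were far above the components, of which C4b had 12.3 ± 2.06 FPKM, C1s1 5.86 ± 1.19 FPKM, C3 2.42 ± 0.744 FPKM and Cfb 1.81 ± 0.361 FPKM. C1s1 was above C3 in all 18 libraries although their ranges overlapped, and C3 was above Cfb in 14 of 18. The receptors were lowest, with 0.733 ± 0.264 FPKM for C5ar1 and 0.573 ± 0.113 FPKM for C3ar1, and C5ar1 was the higher in 14 of 18 libraries. Clu took between 40.0% and 50.1% of the summed FPKM of the 9 genes in a library, and C3 between 0.467% and 1.38%. Relative spread between libraries was smallest for Clu, with a coefficient of variation of 7.2% in CPM, and largest for C5ar1, with 35.3%. The counts behind a value ranged from 73 to 315 for C5ar1 and from 143 to 278 for C3ar1.

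**Figure D1:**
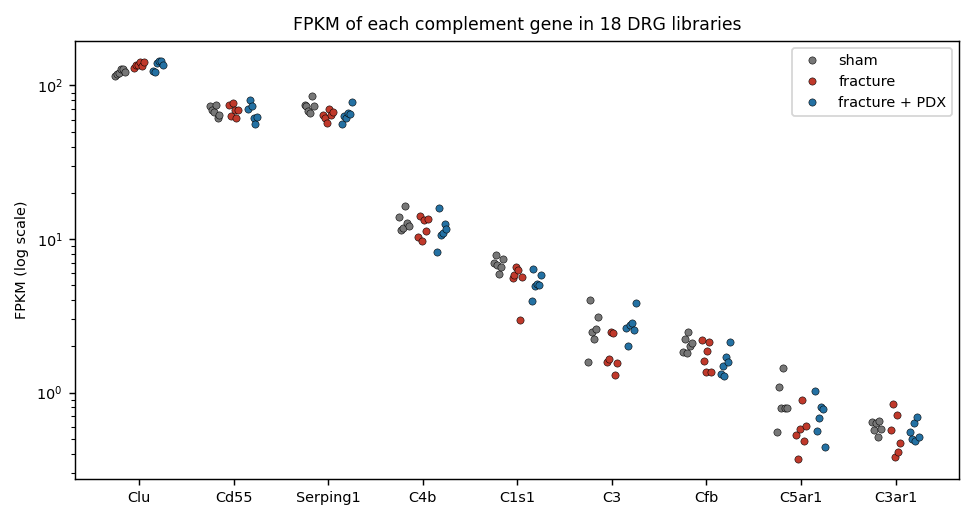
FPKM (log axis) of the 9 complement genes in each of the 18 libraries, coloured by group, with the genes ordered by mean. The points of Clu lie highest, Cd55 and Serping1 overlap near 68 FPKM, and both receptors lie lowest.

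To ask how complement transcripts in DRG differed after fracture, fracture mice were compared with sham mice. Of the 20659 genes tested, 603 (2.92%) were called, that is, fell under 0.05 in the quasi-likelihood test of edgeR after Benjamini-Hochberg adjustment, and 0 of the 7 tested complement genes were. Before adjustment, 3 of the 7 had a p-value under 0.05, all lower after fracture, against 9.69% of all genes lower at that threshold. The median log2 fold change of the 7 was -0.19, with 6 of the 7 below 0, while the median of all genes was 0.00. DESeq2 in place of edgeR called 1 of the 7, Serping1, against 7.94% of all genes with an adjusted p-value, and limma on log2(FPKM + 1) called 0, against 2.12%.

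Serping1 (ENSMUSG00000023224, chromosome 2 from 84765387 to 84775444 on GRCm38) was measured at 188 ± 16.1 CPM (SD, n = 6) in sham and 165 ± 10.7 CPM in fracture mice. The sham libraries ran from 167 through a median of 190 to 215 CPM, and the fracture libraries from 148 through 166 to 179 CPM. The groups overlapped, with 3 of the 6 fracture libraries below every sham library. Its log2 fold change was -0.19 (SE 0.054, adjusted p = 0.0719 in edgeR). Sham female 1 had the lowest Serping1 of the sham libraries (167 CPM). Without it the log2 fold change was -0.24 and the adjusted p-value 0.0208 in edgeR. With all libraries DESeq2 gave an adjusted p-value of 0.0169. The other 19 of 21 alternatives stayed above 0.05, with adjusted p-values up to 0.152. Summed satellite glia markers, which varied with Serping1 between libraries (r = 0.75 of the deviations from group and sex, n = 18, and 0.52 without sham female 1), were 3322 to 4188 CPM in sham and 3911 to 4329 CPM in fracture mice. Summed fibroblast markers (r = 0.66 with Serping1, and 0.53 without that library) were 1484 to 1963 and 1397 to 1627 CPM, and 1 of the 7 was called lower after fracture. Summed B-cell precursor markers had an r of -0.71 with Serping1 (-0.54 without that library). Serping1 also had an r of -0.59 with the summed sensory neuron markers (-0.59 without that library) and of -0.50 with the neutrophil markers (-0.38 without it). Of the 10 sensory neuron markers 3 were called higher after fracture, and they summed to 11257 to 11978 CPM in sham and 12588 to 13162 CPM in fracture mice. The part of these cells in the values of Serping1 was not tested.

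C1s1 (ENSMUSG00000038521, chromosome 6 from 124530345 to 124542359), which encodes the protease blocked by the C1 inhibitor, was 23.8 ± 2.54 CPM in sham and 18.9 ± 4.42 CPM in fracture mice. Sham libraries ran from 20.0 through 23.9 to 27.2 CPM and fracture libraries from 10.4 through 19.7 to 22.9 CPM. The log2 fold change was -0.33 (SE 0.148, adjusted p = 0.256 in edgeR). Fracture female 2, at 10.4 CPM, lay apart from the other 5 fracture libraries at 19.4 to 22.9 CPM, and without it the log2 fold change was -0.21 with an adjusted p-value of 0.201. The close paralog C1s2 had 79 to 242 counts where C1s1 had 813 to 2170, and reads may have been split between them. Fracture female 2 had the lowest counts of both genes (813 of C1s1 and 79 of C1s2). C1s1 varied with the fibroblast markers given for Serping1 (r = 0.53, n = 18, and 0.51 without sham female 1), and their part in C1s1 was not tested.

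C5ar1 (ENSMUSG00000049130, chromosome 7 from 16246743 to 16259540) had the largest difference of the 7 on the log2 scale. It was 2.56 ± 0.858 CPM in sham and 1.64 ± 0.498 CPM in fracture mice. Sham libraries ran from 1.56 through 2.26 to 4.0 CPM and fracture libraries from 1.04 through 1.60 to 2.52 CPM, so the groups overlapped. The log2 fold change was -0.64 (SE 0.227, adjusted p = 0.148 in edgeR). Sham female 1 had the highest C5ar1 of all libraries, and without it the log2 fold change was -0.50 (adjusted p = 0.273). C5ar1 is carried by neutrophils and macrophages, and it varied with the summed neutrophil markers (r = 0.75, n = 18) and macrophage markers (r = 0.53) after group and sex were accounted for. It also varied with the 6 B-cell precursor markers (r = 0.64, and 0.53 without sham female 1). Its r with the 6 red blood cell markers given above was 0.48. The 10 neutrophil markers summed to 80.1 to 355 CPM in sham, 85.2 to 181 in fracture and 76.3 to 453 in fracture plus PDX mice, and Ly6g was at 3 or fewer counts in at least 1 fracture library. In fracture against sham mice, 0 of the 10 neutrophil markers had a positive fold change (median -0.82 on the log2 scale) and 1 was called lower, and 0 of the 10 macrophage markers were positive (median -0.34) and 2 were called lower. The B-cell precursor markers, of which 1 of 6 was called lower after fracture, summed to 2.79 to 10.5 CPM in sham, 2.64 to 3.45 in fracture and 2.60 to 6.22 in fracture plus PDX mice. The defining genes Vpreb1 and Dntt were at 3 or fewer counts in at least 1 library of every group. Igll1 was so in at least 1 fracture library. The part of these cells was not tested.

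The other 4 tested genes had groups that overlapped and did not pass the test. Cfb (ENSMUSG00000090231, chromosome 17 from 34856374 to 34862518) was 6.47 ± 0.723 CPM in sham and 5.49 ± 1.15 CPM in fracture mice, a log2 fold change of -0.23 (SE 0.135, adjusted p = 0.396 in edgeR). C4b (ENSMUSG00000073418, chromosome 17 from 34728380 to 34743882), the source of the fragments that build the enzyme cleaving C3, was 81.8 ± 10.6 and 75.7 ± 10.9 CPM (log2 fold change -0.11, adjusted p = 0.622 in edgeR), and its log2 fold change was -0.05 without sham female 1 and -0.18 without fracture male 2. C3ar1 (ENSMUSG00000040552, chromosome 6 from 122847138 to 122856161) was 2.83 ± 0.265 and 2.67 ± 0.840 CPM, and its fracture libraries from 1.84 to 3.97 CPM spread wider than the sham libraries from 2.36 to 3.04 CPM. Cd55 (ENSMUSG00000026399, chromosome 1 from 130439027 to 130462744) was 365 ± 25.8 and 370 ± 33.1 CPM, with an adjusted p-value of 0.869, and that of C3ar1 was 0.871. Reads of C4b and Cd55 may be shared with the paralogs C4a, at 90 to 351 counts, and Cd55b, at 0 to 534 counts.

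For C3 and Clu, chosen from these groups, the levels and fitted differences are given with no test. Clu (ENSMUSG00000022037, chromosome 14 from 65968483 to 65981547) was 462 ± 13.9 CPM in sham mice and 520 ± 18 CPM in fracture mice. Sham libraries ran from 439 through 466 to 475 CPM and fracture libraries from 494 through 517 to 541 CPM, so that all 6 fracture libraries lay above all 6 sham libraries. Over all genes, 0.958% were separated in this direction, and nothing is read from this separation because it is what brought Clu into the set. The fitted log2 fold change of Clu was 0.17. Clu varied with the sensory neuron markers given for Serping1 after group and sex were accounted for (r = 0.43, n = 18). With the hepatocyte markers, which are given with Cfb, Clu had an r of -0.54 (-0.57 without sham female 1). The part of these cells in Clu was not tested. C3 (ENSMUSG00000024164, chromosome 17 from 57203970 to 57228136) was 15.1 ± 4.74 CPM in sham and 10.5 ± 2.88 CPM in fracture mice, with a fitted log2 fold change of -0.52. Its sham libraries ran from 9.04 through 14.2 to 22.8 CPM and its fracture libraries from 7.43 through 9.23 to 14.3 CPM, and 2 of the 6 fracture libraries lay below every sham library. C3 varied with the fibroblast markers given for Serping1 (r = 0.59, n = 18, and 0.57 without sham female 1), of which 0 of 7 had a positive fold change after fracture, and their part in C3 was not tested.

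**Figure D2:**
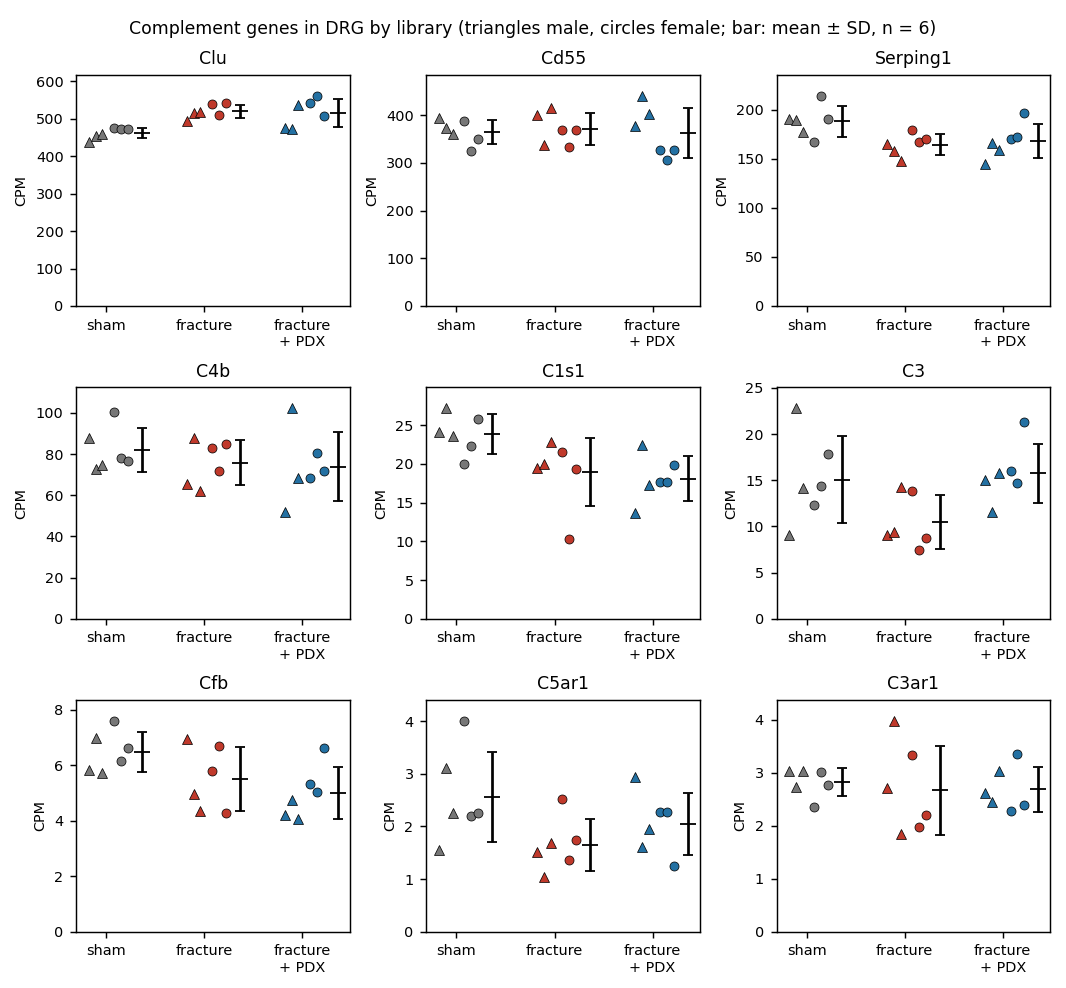
CPM of each complement gene (vertical axes from 0) in every library, with triangles for males, circles for females, and a bar at the mean ± SD of the 6 libraries of a group. Clu is the gene in which the 6 fracture libraries all lie above the 6 sham libraries, and the groups overlap in the other 8 genes.

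The effect of PDX was examined by comparing fracture plus PDX with fracture mice. Of 20562 genes, edgeR called 0 (0%), and 0 of the 7 tested complement genes. Before adjustment 0 of the 7 had a p-value under 0.05, against 5.41% of all genes. DESeq2 also called 0 of the 7, against 0.109% of all genes with an adjusted p-value, limma called 0 (0% of all genes), and the median log2 fold change of the 7 was -0.04. Adjusted p-values of the 7 in edgeR ran from 0.935 for C5ar1 to 0.998 for C3ar1.

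C5ar1 was 1.64 ± 0.498 CPM in fracture and 2.05 ± 0.589 CPM in fracture plus PDX mice (log2 fold change 0.33, SE 0.234), and without fracture plus PDX male 1 the log2 fold change was 0.17. That library had the most summed neutrophil markers (453 CPM) and red blood cell markers (2854 CPM) of the 18 libraries. The 10 neutrophil markers each had a positive fold change in this comparison, with a median of 1.11 on the log2 scale, 0 of the 10 called in edgeR and 9 at an unadjusted p-value under 0.05. Of the 10 macrophage markers 8 were positive (median 0.21), with 0 called and 3 higher before adjustment. The 6 B-cell precursor and the 6 red blood cell markers were all positive (medians 0.63 and 0.28), with 0 called and 0 before adjustment. The part of these cells in C5ar1 was not tested. Cfb was 5.49 ± 1.15 and 4.99 ± 0.925 CPM (log2 fold change -0.15, SE 0.145), and the log2 fold change was -0.04 without fracture male 1 and -0.24 without fracture female 3. Log2 fold changes of the other 5 tested genes lay between -0.06 for C1s1 and 0.03 for Serping1. Of the genes that received no test, Clu was 520 ± 18 CPM in fracture and 516 ± 37.3 CPM in fracture plus PDX mice (log2 fold change -0.01). C3 was 10.5 ± 2.88 and 15.8 ± 3.17 CPM, and its fracture plus PDX libraries ran from 11.6 through 15.4 to 21.3 CPM. For C3, 5 of the 6 fracture plus PDX libraries lay above every fracture library, and the fitted log2 fold change was 0.58.

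Fracture plus PDX mice were also compared with sham mice, which the first comparison used too. Of 20574 genes, edgeR called 925 (4.5%), and 0 of the 7 tested complement genes. At an unadjusted p-value under 0.05, 3 of the 7 were lower, against 8.99% of all genes. All 7 had a negative log2 fold change, with a median of -0.16, while that of all genes was 0.00. DESeq2 called 2 of the 7, C1s1 and Cfb, against 8.21% of all genes with an adjusted p-value, and limma called 0, against 3.17%.

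C1s1 and Cfb lay closest to the threshold. C1s1 was 23.8 ± 2.54 CPM in sham and 18.1 ± 2.94 CPM in fracture plus PDX mice, whose libraries ran from 13.7 through 17.6 to 22.5 CPM, and 5 of the 6 lay below every sham library. Its log2 fold change was -0.39 (SE 0.107, adjusted p = 0.0572 in edgeR). Its adjusted p-value stayed above 0.05 in 15 of 21 alternatives, with adjusted p-values up to 0.153. In the other 6 it was 0.00755 in DESeq2, 0.0353 with the replicate block, 0.0482 without sex in the model, 0.0497 with upper-quartile scaling, 0.0421 without sham female 1 and 0.0267 without fracture plus PDX male 2. The summed fibroblast markers were 1293 to 1837 CPM in fracture plus PDX against 1484 to 1963 CPM in sham mice, with 0 of the 7 positive in fold change and 0 called in edgeR (3 lower before adjustment), and their part in C1s1 was not tested. Cfb was 6.47 ± 0.723 CPM in sham and 4.99 ± 0.925 CPM in fracture plus PDX mice, with libraries from 4.07 through 4.88 to 6.61 CPM, and 5 of the 6 lay below every sham library. Its log2 fold change was -0.38 (SE 0.106, adjusted p = 0.0587 in edgeR), and the adjusted p-value was 0.0112 in DESeq2, 0.0249 without fracture plus PDX female 3 and 0.113 without sham female 1, the library with the most Cfb. The adjusted p-value of Cfb stayed above 0.05 in 19 of 21 alternatives, with values up to 0.134. Cfb varied closely with the 6 hepatocyte markers (r = 0.84, n = 18), which were 14.0 to 35.4 summed CPM in sham, 1.93 to 25.5 in fracture and 5.65 to 20.5 in fracture plus PDX mice. Alb, Apoa2 and Fgb were at 3 or fewer counts in at least 1 fracture library, and the part of these cells in Cfb was not tested.

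Serping1 was 168 ± 17.4 CPM in fracture plus PDX mice, with a log2 fold change against sham of -0.16 (SE 0.0645, adjusted p = 0.193 in edgeR). Without sham female 1, the sham library with the least Serping1, the adjusted p-value was 0.0466 in edgeR. In the other 20 of 21 alternatives it stayed above 0.05, up to 0.358. The summed satellite glia markers were 4002 to 4694 CPM in fracture plus PDX mice, and 1 of the 6 was called higher than in sham mice. The summed sensory neuron markers were 11992 to 13694 CPM, with 3 of the 10 called higher than in sham mice, and the part of either cell type in Serping1 was not tested. Adjusted p-values of C4b, Cd55, C3ar1 and C5ar1 ran from 0.557 to 0.947. Clu was 516 ± 37.3 CPM, and 5 of the 6 fracture plus PDX libraries lay above every sham library. C3 had close to the same mean in sham (15.1 ± 4.74 CPM) and in fracture plus PDX mice (15.8 ± 3.17 CPM).

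**Figure D3:**
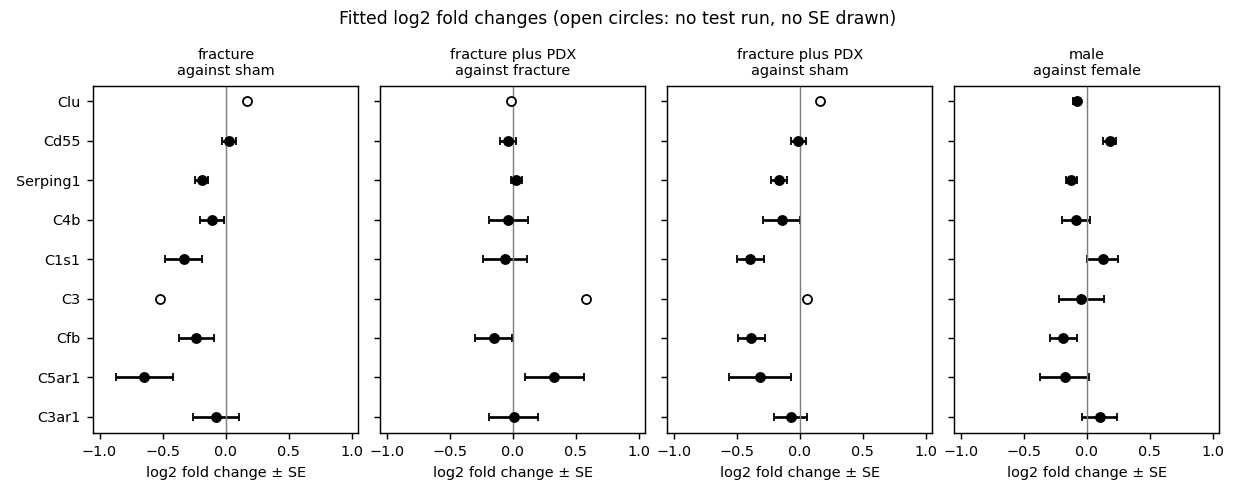
Fitted log2 fold change of the 9 complement genes in the 3 group comparisons and between males and females, with bars of ± SE. Open circles without a bar mark C3 and Clu in the group comparisons, where no test was run. C1s1 and Cfb lie at -0.39 and -0.38 in fracture plus PDX against sham mice.

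Sex was compared over all 18 libraries with group in the model, 9 males against 9 females. Of 21340 genes, edgeR called 62 (0.291%), and 0 of the 9 complement genes. Before adjustment 3 of the 9 had a p-value under 0.05, Cd55 higher and Serping1 and Clu lower in males, against 10.1% of all genes in either direction. DESeq2 called 1 of the 9, Cd55, with an adjusted p-value of 0.0338, against 2.03% of all genes with an adjusted p-value, and limma called 0, against 0.22%. The adjusted p-value of Cd55 stayed above 0.05 in the other 24 of 25 alternatives, up to 0.294.

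Cd55 was 389 ± 30.9 CPM in males (n = 9) and 343 ± 26.6 CPM in females (n = 9). Male libraries ran from 337 through 394 to 441 CPM and female libraries from 306 through 333 to 388 CPM, and 5 of the 9 males lay above every female. The log2 fold change was 0.18 (SE 0.0519, adjusted p = 0.174 in edgeR). The mean of Cd55 in males and females was 375 and 354 CPM in sham, 384 and 356 CPM in fracture, and 407 and 320 CPM in fracture plus PDX mice. The interaction of sex with PDX was 0.24 on the log2 scale for Cd55 (SE 0.109, adjusted p = 0.998 in edgeR), so a difference of the PDX effect between the sexes was not detected.

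Clu was 485 ± 33.2 CPM in males and 513 ± 34.4 CPM in females (log2 fold change -0.08, SE 0.0272, adjusted p = 0.253 in edgeR), and the mean of females was the higher in each of the 3 groups. Serping1 was 167 ± 16.6 CPM in males and 181 ± 16.5 CPM in females (log2 fold change -0.12, SE 0.0464, adjusted p = 0.345). In Serping1, 6 of the 9 males lay below every female. The other 6 complement genes had adjusted p-values from 0.599 to 0.970. The interaction of sex with fracture passed the test in 0 of 20659 genes (0%) and the interaction of sex with PDX in 1 of 20562 genes (0.00486%) in edgeR, and in 0 of the 9 complement genes each. Before adjustment 0 and 1 of the 9 had a p-value under 0.05, against 7.2% and 4.14% of all genes, and DESeq2 called 0 of the 9 in both, against 0.334% and 0.039%.

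The 9 genes were also compared with each other in pairs. The Pearson r of the 36 pairs, computed on deviations of log2 CPM from group and sex over 18 libraries, had a median of 0.03. It ran from -0.59 for Serping1 and C5ar1 (-0.46 without sham female 1) to 0.49 for C3 and C1s1 (0.47 without it), followed by 0.43 for C1s1 and Serping1. All pairs share the libraries and their scaling, so these values describe the libraries only.

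For each complement gene, the genes most like it were sought among 15800 genes with a mean of at least 1 CPM, by the same r over 18 libraries. C4b was closest to Psmb8 (r = 0.88), a subunit of the immunoproteasome, to Ifitm3 (0.87), an interferon-induced membrane protein, and to Ctss (0.87), a lysosomal protease of antigen-presenting cells. Serping1 was closest to Col8a1 (0.89), a collagen, then Vmp1 (0.83) and Slc6a6 (0.81). C3 was closest to Nr1h3 (0.86), the nuclear receptor LXR alpha, then Fgfrl1 (0.85) and Kank1 (0.83). Cfb was closest to Klhl4 (0.86), Fzd7 (0.85) and Ttr (0.84), the last a hepatocyte marker of the list above that carries thyroid hormone. C5ar1 was closest to Acap1 (0.86), Mxd1 (0.85) and Hcls1 (0.85), the last a signaling protein of blood cells. C1s1 was closest to Mndal (0.84), Hpgds (0.82) and Rnf135 (0.81), and C3ar1 to Lgals1 (0.85), Selenom (0.85) and Ttll12 (0.85). Cd55 was closest to Magi3 (0.88), Slc5a11 (0.85) and Runx1 (0.85), and Clu to Zcwpw1 (0.87), Tmem80 (0.80) and Ano8 (0.79). Among so many genes and 18 libraries, high values of r can occur without any relation.

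**Figure D4:**
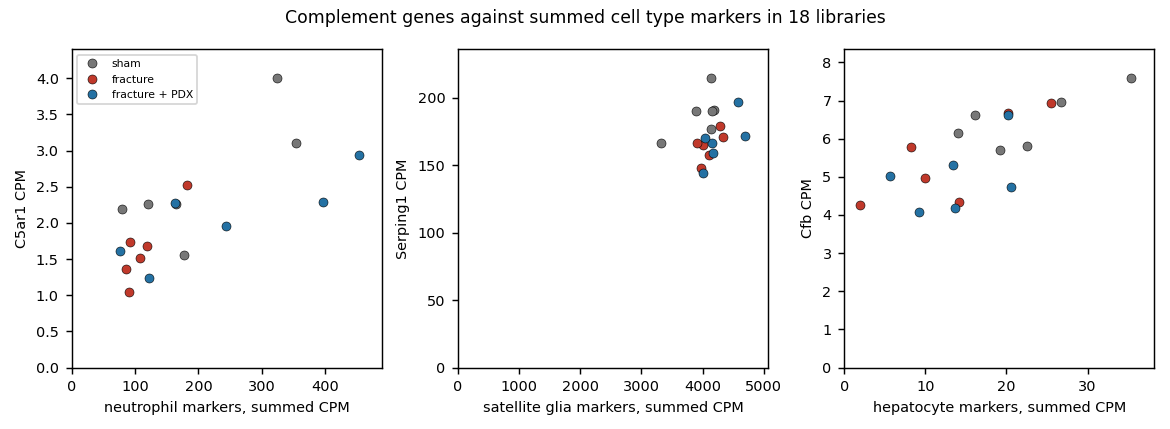
CPM of C5ar1, Serping1 and Cfb (vertical axes from 0) against the summed CPM of neutrophil, satellite glia and hepatocyte markers in the 18 libraries, coloured by group. The sham library at 3322 CPM of satellite glia markers is sham female 1, which also has the most C5ar1 (4.0 CPM) and Cfb (7.58 CPM).

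Beyond the 9 genes, 48 complement genes in 4 lists by function were examined, of which 42 were tested. C8a, C8b, C9, Mbl1, Cpn2 and Vsig4 were too low. In fracture against sham mice, 0 of the 42 were called higher and 1 lower (2.38%, against 2.92% of all genes), with a median log2 fold change of -0.05. At an unadjusted p-value under 0.05, 2 of the 42 were higher and 9 lower there, against 18.5% of all genes in either direction. Between fracture plus PDX and fracture mice 0 of the 42 were called (edgeR), and 3 higher and 2 lower had an unadjusted p-value under 0.05, against 5.41% of all genes. In fracture plus PDX against sham mice, 1 was called higher and 3 lower (9.52%, against 4.5% of all genes), with a median of -0.01, and 1 higher and 7 lower before adjustment, against 18% of all genes. Between the sexes, 1 of the 42 was called (2.38%, against 0.291% of all genes), and before adjustment 3 were higher and 4 lower in males, against 10.1% of all genes.

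Among recognition molecules and initiating proteases, 13 of 14 were tested. Masp1, a protease of the lectin pathway, was lower in fracture plus PDX than in sham mice, with 17.6 ± 0.904 CPM in sham and 15.6 ± 0.549 CPM (log2 fold change -0.18, SE 0.0471, adjusted p = 0.0498 in edgeR). The call of Masp1 was lost in 18 of its 21 alternatives, among them without sham female 1 (adjusted p = 0.0698). C1qa and C1qb, chains of C1q, were the most abundant of the list, at 13.0 ± 2.21 and 8.97 ± 1.62 FPKM, and had adjusted p-values of 0.522 and 0.554 in fracture against sham mice.

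Among components of amplification and the terminal complex, 8 of 11 were tested. C2, the partner of C4b in the enzyme that cleaves C3, was lower in fracture plus PDX mice, at 11.7 ± 2.17 CPM in sham and 7.41 ± 1.90 CPM (log2 fold change -0.66, SE 0.172, adjusted p = 0.0494 in edgeR). Sham libraries of C2 ran from 9.16 through 11.7 to 15 CPM and fracture plus PDX libraries from 4.84 through 7.21 to 10.5 CPM, with overlap. The call of C2 was lost in 11 of 21 alternatives, among them without sham female 1 (adjusted p = 0.0782). Fracture mice had 8.90 ± 1.49 CPM of C2 (adjusted p = 0.136 against sham). Cfd, factor D, which cleaves factor B, and Cfp, properdin, were the most abundant, at 9.72 ± 8.87 and 2.72 ± 0.455 FPKM, and the spread of Cfd covered 2.53 to 38.8 FPKM.

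Among regulators, 14 of 16 were tested. Csmd2 was higher in fracture plus PDX than in sham mice, with 20.8 ± 2.70 CPM in sham and 24.7 ± 1.25 CPM (log2 fold change 0.26, SE 0.0683, adjusted p = 0.0489 in edgeR), and its call was lost in 16 of 21 alternatives, among them without sham female 1 (adjusted p = 0.0904). Csmd1 was higher in males, at 51.3 ± 2.05 CPM against 45.4 ± 2.80 CPM in females (log2 fold change 0.18, SE 0.0365, adjusted p = 0.0420), and its call was lost in 16 of 25 alternatives, among them without sham female 1 (adjusted p = 0.0538). Cd59a, which blocks the terminal complex, and Susd4 were the most abundant, at 55.7 ± 5.08 and 19.4 ± 1.43 FPKM, and had adjusted p-values of 0.589 and 0.482 in fracture against sham mice.

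Among receptors, 7 of 7 were tested. Cd93, a membrane protein of endothelial and myeloid cells once described as a receptor of C1q, was lower in both fracture groups than in sham mice. It was 12.9 ± 1.24 CPM in sham, 9.80 ± 0.876 CPM in fracture and 10.4 ± 1.31 CPM in fracture plus PDX mice. Sham libraries of Cd93 ran from 11.5 through 12.7 to 14.9 CPM and fracture libraries from 8.85 through 9.47 to 11.2 CPM, so that these groups did not overlap, which held for 1.53% of all genes in this direction. Its log2 fold change was -0.39 (SE 0.0778, adjusted p = 0.0206 in edgeR) in fracture and -0.31 (SE 0.0685, adjusted p = 0.0232) in fracture plus PDX mice. The first of these calls was lost in 2 of 21 alternatives and the second in 7 of 21. Without sham female 1 the adjusted p-values were 0.0428 and 0.0512. The summed endothelial and macrophage markers given above had lower medians in both fracture groups than in sham mice. Only the macrophage ranges of sham and fracture mice did not overlap. Of the 6 endothelial markers 2 had a positive fold change after fracture, and of the 10 macrophage markers 3 in fracture plus PDX against sham mice. The part of these cells in Cd93 was not tested. Itgb2, the shared chain of complement receptors 3 and 4, was 2.47 ± 0.908 FPKM over all libraries (log2 fold change -0.69, SE 0.192, adjusted p = 0.0748 in fracture against sham mice). C1qbp, a mitochondrial protein that binds C1q, was the most abundant of the list at 18.7 ± 0.815 FPKM (adjusted p = 0.838).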

How the data were processed

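RNA of the L3–L5 DRG of 18 CD1 mice was sequenced by LC Sciences (paired ends, NovaSeq) from stranded poly(A) libraries. The authors deposited raw read counts per gene, without normalization, and FPKM values scaled by transcript length and by mapped fragments. The submitters' processing notes name cutadapt 1.10, FastQC, HISAT2, StringTie and mm10, with no roles or order. Columns named Con were read as the sham group.

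Samples were grouped by their titles. Tests were run with edgeR 4.0.16 in R 4.3.3 (TMM, filterByExpr with a minimum count of 10 and a minimum total of 15, robust quasi-likelihood fits). Sex and group were in the model, fitted to the 12 libraries of each group comparison and of each interaction, and to all 18 for sex. Benjamini-Hochberg adjustment covered every gene in a fit, and a gene was called under 0.05. The standard error (SE) is the absolute log2 fold change over the square root of F. CPM were scaled by TMM over the 18 libraries, with a prior count of 2 on the log2 scale. The labels name no batch. The fits were tested on simulated counts.

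The 9 genes, the 48 other complement genes and the 12 marker lists were chosen with earlier results of these data known. Named are the 9 genes, other complement genes that were called, the 2 of each functional list with the highest mean FPKM, and for each of the 9 the 3 genes of highest r. Alternatives were DESeq2 1.42.0, upper-quartile scaling, other filters on low counts, no sex covariate, a replicate block, all 18 libraries in one fit, limma 3.58.1 on log2(FPKM + 1) and log2(FPKM + 0.1), and each library left out in turn. For the called genes outside the 9, these were chosen after seeing the data. Library depth was between 63235040 and 82824942 counts.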

Additional observations from a re-analysis of the deposited data

Results flagged for a closer look

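In groups of 6 libraries, the library farthest out was compared with its nearest neighbour by Dixon's test in 78 groups, and chance marks about 1 in 20 groups. Among the 27 groups of the 9 complement genes, 1 library was marked. C1s1 in fracture female 2 was 10.4 CPM, against 19.4 to 22.9 CPM in the other 5 fracture libraries. The summed satellite glia markers were 3322 CPM in sham female 1, against 3899 to 4188 CPM in the other sham libraries. The summed endothelial markers were 90.1 CPM in sham female 3, against 108 to 115 CPM in the other sham libraries. For Csmd1, the 3 males of the fracture plus PDX group lay above the 3 males of the fracture group and the 3 females lay below, an interaction of 0.20 on the log2 scale that did not pass the test (SE 0.0685, adjusted p = 0.998 in edgeR). Of all 20562 genes, 90 (0.438%) had the sexes fully separated in opposite directions in this way.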

How the results depend on the processing

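Genes called in fracture against sham mice numbered 603, and 1511 with DESeq2 and 118 with a replicate block, which pairs mice of the same sex and number. In fracture plus PDX against sham mice, 925 were called, 1620 with DESeq2 and 486 with the block, and between the sexes 62, 332 with DESeq2 and 21 with the block. Same-numbered libraries had an r of their deviations over 0.1 in 0 of 6 pairs in each group comparison (r from -0.21 to 0.05), and were taken as unpaired. As a hint from the data, the highest r of a library with the other group's libraries of its sex was also read. Its own number, 1 of 3 candidates, had the highest r in 4 of 6 libraries after fracture. This held in 4 of 6 between fracture plus PDX and fracture, and in 2 of 6 in fracture plus PDX against sham. All r of the same number were negative after fracture (-0.10 to -0.01) and in fracture plus PDX against sham (-0.11 to -0.03). DESeq2 also called 15 genes between fracture plus PDX and fracture mice, 65 in the interaction of sex with fracture and 8 in that of sex with PDX, where 1 was called in edgeR and 0 with at least 10 counts in every library or with limma. Leaving out each library in turn gave 213 to 710 genes after fracture, lowest without fracture female 2, 0 to 1 between fracture plus PDX and fracture, 498 to 1008 in fracture plus PDX against sham, and 24 to 86 between the sexes, lowest without fracture female 3.

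Of the tested complement genes, 1 was called with DESeq2 in fracture against sham mice and 0 to 1 when libraries were left out. In fracture plus PDX against sham mice, DESeq2 called 2, and upper-quartile scaling, no sex covariate and the block 1 each, C1s1 (adjusted p = 0.0353 with the block in edgeR). Leaving out libraries there gave 0 to 2. Between the sexes DESeq2 called 1. Directions changed when single libraries were left out. In fracture against sham mice, log2 fold changes then ran from -0.0031 to 0.062 for Cd55 and from -0.23 to 0.021 for C3ar1. In fracture plus PDX against fracture mice they ran from -0.18 to 0.046 for C4b, -0.19 to 0.029 for C1s1, -0.0085 to 0.055 for Serping1 and -0.089 to 0.16 for C3ar1. In fracture plus PDX against sham mice they ran from -0.055 to 0.034 for Cd55, and between the sexes from -0.16 to 0.031 for C3. For the genes without a group test, Clu ran from -0.036 to 0.0063 between fracture plus PDX and fracture mice. C3 ran from -0.046 to 0.25 in fracture plus PDX against sham mice. The cause was not tested.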
